A study of Mus musculus with 6 samples.

Results

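The genes described here are the platelet-derived growth factor (PDGF) family as measured in irradiated mouse jejunum: the receptor genes Pdgfra and Pdgfrb and the ligand genes Pdgfa, Pdgfb, Pdgfc and Pdgfd. They were taken by gene name from the non-control spots of the arrays, which gave 6 genes of 33519 distinct gene names, on 8 probes of 55681 and on 17 spots. A filter that asked for a signal clear of the background on 3 or more of the 6 arrays was passed by 7 of the 8 probes, which stand for 5 of the 6 genes. The genes were chosen by their values in these same 6 samples, the log2 signals of VND3207 and vehicle arrays, so their levels and differences are given as a description with no test. Gene expression was measured as total RNA labelled with Cy3 on 6 one-colour Agilent arrays, 1 per mouse, in male C57BL/6J mice. The treated mice (n = 3) received VND3207, a compound that the labels give only by its code name, into the stomach at 100 mg/kg, and the control mice (n = 3) received an equal volume of the vehicle. Radiation of 9 Gy followed 0.5 h after dosing in all 6 mice, and jejunum tissue was collected 6 h later. Radiation is therefore shared by both groups, and unirradiated tissue was not analysed here.

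PDGF ligands are secreted dimers that bind receptor tyrosine kinases on neighbouring cells, mostly of mesenchymal origin. PDGF-A and PDGF-C act mainly through the receptor PDGFRα and PDGF-B and PDGF-D mainly through PDGFRβ. In the intestine the epithelium secretes PDGF-A, the mesenchymal cells under it carry PDGFRα and take part in villus formation, and endothelial PDGF-B recruits pericytes that carry PDGFRβ.

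Each value below is the log2 signal of a probe minus the 75th percentile of its array, so that 0 is the signal that 75% of the spots do not exceed. Probes differ in their brightness for the same amount of RNA, so levels are compared between arrays for 1 probe and never between probes. Of the non-control spots, 58.8% to 61.4% were well above background on the VND3207 arrays and 66.7% to 70.0% on the vehicle arrays, and 0 spots were saturated. The epithelial markers of the intestine had a mean log2 level of 6.73 to 6.84 on VND3207 arrays and 6.98 to 7.04 on vehicle arrays, far above the 75th percentile. All VND3207 arrays were on slide 2 and scan 2 and all vehicle arrays on slide 1 and scan 1, so that slide, scan and treatment cannot be told apart in any comparison here. The median difference of the 36097 kept probes with a fit (VND3207 minus vehicle, in log2) was -0.06. With 3 arrays a group, the precision of all values is limited by that number.

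Both PDGF receptor genes were higher in the jejunum of VND3207 mice than in that of vehicle mice, with every VND3207 mouse above every vehicle mouse, by 1.5-fold for Pdgfra and 1.33-fold for Pdgfrb. Among the ligand genes, Pdgfa, Pdgfb and Pdgfc were measured with overlapping groups, and Pdgfd was not well above background on any array. In bulk tissue such as this, fewer cells of a type and less RNA per cell cannot be told apart.

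Pdgfra encodes PDGFRα, the receptor of the mesenchymal cells under the intestinal epithelium. Its probe lies on mouse chromosome 5 at 75593888 to 75593947 on the plus strand of mm9, the build of the files, and starts at base 6211 of the transcript. The first 30 bases of the probe, at chr5:75593888-75593917 on the plus strand, are shown to place the measurement on the transcript, with no letters in capitals.
Pdgfra probe: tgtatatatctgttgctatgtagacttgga

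The Pdgfra level was 1.35, 1.29 and 1.04 in VND3207 mice 1 to 3, against 0.56, 0.49 and 0.89 in vehicle mice 1 to 3. The lowest VND3207 mouse (replicate 3) was above the highest vehicle mouse (replicate 3), and the other 2 mice of each group lay further apart. The mean was 1.23 ± 0.16 in VND3207 mice and 0.65 ± 0.21 in vehicle mice (SD, n = 3 each), a log2 difference of 0.58. Groups that did not overlap with VND3207 higher were found for 9.41% of the 36066 kept probes with a value on all 6 arrays. The share with VND3207 lower was 24.9%. These values chose the members, so nothing is read from those shares.

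The array carried the Pdgfra probe in 10 spots, in rows 33 to 345 of 384, which gives a measure of the error within an array. The spots had a median of 1.35 (lowest 1.27, highest 1.41), 1.29 (1.24 to 1.33) and 1.07 (0.91 to 1.12) on VND3207 arrays 1 to 3, against 0.55 (0.49 to 0.59), 0.52 (0.38 to 0.60) and 0.91 (0.68 to 0.98) on vehicle arrays 1 to 3. The SD among spots of 1 array was 0.027 to 0.066 on VND3207 arrays and 0.030 to 0.096 on vehicle arrays, below the SD between mice. The lowest spots of VND3207 array 3 were below the highest of vehicle array 3, so these 2 arrays overlapped spot by spot although their means did not. At each of the 8 spot positions measured on all 6 arrays the mean difference was positive, from 0.52 to 0.67 with a median of 0.56. Spots of 1 array share the RNA of 1 mouse and are not replicates of the treatment.

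**Figure D1:**
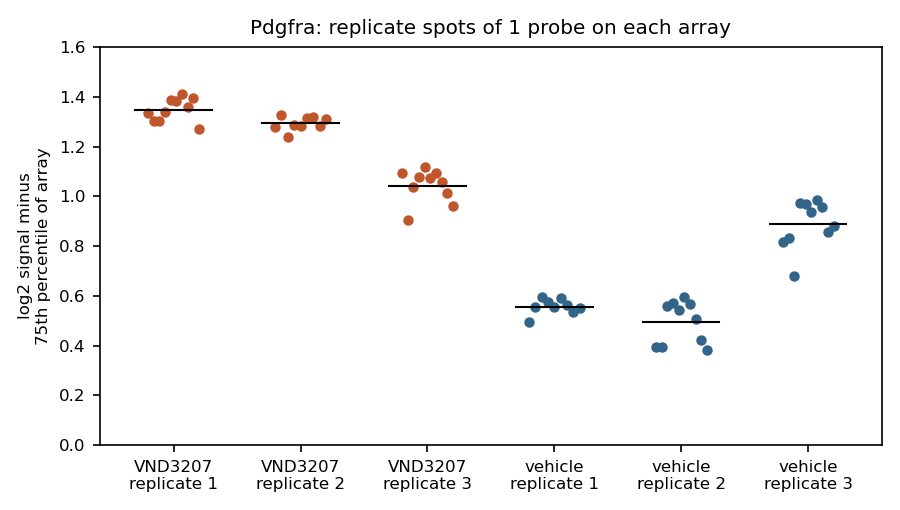
Each point is 1 spot of the Pdgfra probe on 1 array, on the y axis as log2 signal minus the 75th percentile of the array, and the line is the mean of the array's spots. The VND3207 arrays, on the left, have medians of 1.35, 1.29 and 1.07, and the vehicle arrays, on the right, 0.55, 0.52 and 0.91.

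Pdgfrb encodes PDGFRβ, the receptor of pericytes and other perivascular cells. Its only probe lies on chromosome 18 at 61244606 to 61244665 (mm9, plus strand) and starts at base 5297 of the transcript.

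The Pdgfrb level was 0.44, 0.32 and 0.47 in VND3207 mice 1 to 3, against -0.09, 0.04 and 0.03 in vehicle mice 1 to 3. Every VND3207 mouse was above every vehicle mouse, with a narrower spread in each group than Pdgfra had. The mean was 0.41 ± 0.08 in VND3207 mice and -0.01 ± 0.07 in vehicle mice (SD, n = 3 each), a log2 difference of 0.41. The mice did not keep the same order for both receptors: VND3207 mouse 3 had the lowest Pdgfra level and the highest Pdgfrb level of its group.

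Pdgfa encodes PDGF-A, the ligand that the intestinal epithelium makes. Its probes lie on chromosome 5 on the minus strand of mm9, at 139452934 to 139452993 and 139452925 to 139452984, start at bases 950 and 959 of the transcript, and share 51 of their 60 bases. Because the probes overlap they are near-repeats of 1 measurement and not independent ones. A stretch of 30 bases common to both, at chr5:139452955-139452984 on the minus strand, shows the region that both measure, with no letters in capitals.
Pdgfa, both probes: ctcagagagacagtgagaaagcttccttgt

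On the brighter probe the Pdgfa level was 4.30, 4.42 and 4.59 in VND3207 mice 1 to 3, against 4.68, 4.63 and 4.43 in vehicle mice 1 to 3. The groups overlapped, with VND3207 mouse 3 above vehicle mouse 3. The mean was 4.44 ± 0.15 in VND3207 mice and 4.58 ± 0.13 in vehicle mice (SD, n = 3 each), and the difference of -0.14 was about as large as the spread between mice. The second probe gave 4.31, 4.32 and 4.49 in VND3207 mice 1 to 3 and 4.59, 4.59 and 4.41 in vehicle mice 1 to 3, a difference of -0.16 with overlapping groups. Replicate 3 stood apart from the other 2 mice of its group on both probes, being high in the VND3207 group and low in the vehicle group. The sign of the Pdgfa difference depended on the scaling: it was 0.15 when arrays were scaled by their median. It was 0.035 with a trend correction, in which smooth trends with brightness, probe GC content and place on the array were removed from each array.

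Pdgfb encodes PDGF-B, the endothelial and platelet ligand that recruits pericytes. Its 2 probes lie 1062 bases apart on chromosome 15 (mm9, minus strand), at 79826376 to 79826435 and at 79827438 to 79827497, and start at bases 2812 and 1750 of the transcript. The stretches below, at chr15:79826406-79826435 and chr15:79827468-79827497 on the minus strand, are shown because the 2 probes differed in signal. No letters are in capitals.
Pdgfb, bright probe: gttccttctgcttccttcagtttgtaaagt
Pdgfb, dim probe: actccaggctgcaggcttctcttgactcca

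The bright Pdgfb probe gave 0.43, 0.31 and 0.46 in VND3207 mice 1 to 3, against 0.21, 0.35 and 0.12 in vehicle mice 1 to 3. The groups overlapped because vehicle mouse 2 was above VND3207 mouse 2. The mean was 0.40 ± 0.08 in VND3207 mice and 0.23 ± 0.11 in vehicle mice (SD, n = 3 each), a difference of 0.18. The dim probe was well above background on 1 VND3207 array and on 3 vehicle arrays. It gave -4.82, -5.48 and -4.97 in VND3207 mice 1 to 3 and -4.82, -4.96 and -4.96 in vehicle mice 1 to 3, a difference of -0.18. The probes thus differed in sign, the mean over both gave 0.001, and no direction is given for Pdgfb.

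Pdgfc encodes PDGF-C, a ligand of PDGFRα that is secreted in a latent form and activated by cleavage. Its probe lies on chromosome 3 at 81017572 to 81017631 (mm9, plus strand). The level was -0.28, 0.02 and -0.53 in VND3207 mice 1 to 3, against 0.05, -0.19 and 0.04 in vehicle mice 1 to 3. The groups overlapped, with VND3207 mice 1 and 3 below every vehicle mouse and VND3207 mouse 2 among them. The mean was -0.26 ± 0.27 in VND3207 mice and -0.035 ± 0.14 in vehicle mice (SD, n = 3 each). The difference of -0.23 was about as large as the spread between mice, and it was 0.072 when arrays were scaled by their median.

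Pdgfd encodes PDGF-D, the other ligand that is activated by cleavage and acts on PDGFRβ. Its probe, on chromosome 9 at 6376926 to 6376985 (mm9, plus strand), was not well above background on any of the 6 arrays. The signal was -5.68, -6.98 and -6.87 in VND3207 mice 1 to 3 and -6.65, -6.44 and -5.50 in vehicle mice 1 to 3. The lowest signal of any probe called well above background was -5.17 to -4.74 on VND3207 arrays and -5.78 to -5.56 on vehicle arrays, so that no fold is given for Pdgfd.

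**Figure D2:**
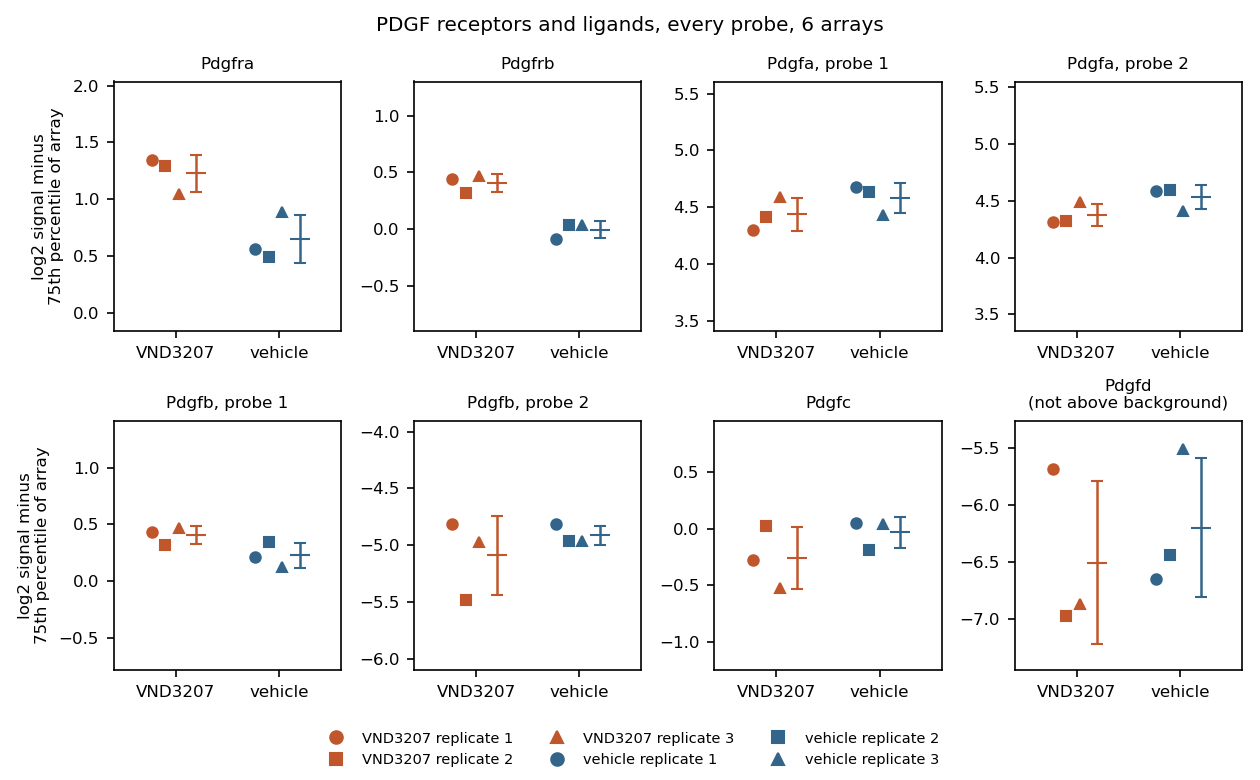
Each panel is 1 probe of a PDGF gene, with the value of each mouse (circle, square and triangle for replicates 1, 2 and 3) and the mean with its SD (n = 3 each) on the y axis as log2 signal minus the 75th percentile of the array. Every panel spans the same range, and VND3207 mice lie wholly above vehicle mice for Pdgfra (1.04 to 1.35 against 0.49 to 0.89) and Pdgfrb (0.32 to 0.47 against -0.09 to 0.04). The same held for 9.41% of 36066 kept probes, and the genes were chosen by these values.

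Subtracting 1 constant from an array leaves a difference taken within that array as it is, though other corrections can move it, and its change between groups can be read even though its level sets 1 probe against another. These differences were chosen after the values had been seen. Pdgfra relative to Pdgfc was higher in VND3207 mice than in vehicle mice by 0.81 on the log2 scale, with no overlap, and by 0.66 with the trend correction, also with no overlap. Relative to Pdgfa it was higher by 0.73, with overlap in replicate 3 of both groups, and by 0.41 with the trend correction. Pdgfrb relative to the bright Pdgfb probe was higher by 0.24 in VND3207 mice, without overlap, but with the trend correction the difference was 0.06 and the groups overlapped. The change of Pdgfra relative to Pdgfrb was 0.17, with overlapping groups, which is within the spread between mice.

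Promoter sequence is shown for Pdgfra and for Pdgfa, the epithelial ligand gene of the same receptor, because the groups were apart for the first and overlapped for the second. The 250 bases before the start of a transcript are given from RefSeq on the GRCm38.p6 build, and capitals mark a GC box, searched as GGGCGG and on the other strand as CCGCCC. For Pdgfra the window is chr5:75152001-75152250 (plus strand) and held 0 GC boxes. For Pdgfa the window of 1 of its 2 starts is chr5:138994945-138995194 (minus strand) and held 2, and the window of the other start, not printed, held 1.
Pdgfra promoter: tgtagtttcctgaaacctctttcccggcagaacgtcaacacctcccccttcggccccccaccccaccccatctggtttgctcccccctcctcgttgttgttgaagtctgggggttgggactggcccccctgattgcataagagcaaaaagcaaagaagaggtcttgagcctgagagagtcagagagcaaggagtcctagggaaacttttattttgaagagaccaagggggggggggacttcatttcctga
Pdgfa promoter: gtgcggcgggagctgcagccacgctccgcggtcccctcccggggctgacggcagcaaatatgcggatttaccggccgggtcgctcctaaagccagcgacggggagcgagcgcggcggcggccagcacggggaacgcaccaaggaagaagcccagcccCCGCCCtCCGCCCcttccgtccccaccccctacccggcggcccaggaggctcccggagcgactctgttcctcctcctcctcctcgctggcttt

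Of 32851 RefSeq promoter windows of the same length, 32.7% held a GC box, and the Pdgfc and Pdgfd windows held 0. The TATA box was searched as TATAAA and TTTATA. Among the windows of Pdgfra, Pdgfa, Pdgfc and Pdgfd it was found once, in that of Pdgfd, and it was found in 12.4% of all windows. No counts of either box were made for Pdgfrb and Pdgfb. The GC content was 54.4% in the Pdgfra window and 72.4% in the Pdgfa window shown. A match is a description of letters and says nothing of binding.

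The wider PDGF pathway was read from gene lists, each gene by its brightest probe, with limma and Benjamini-Hochberg adjustment over all 36097 probes tested. Across all tested probes, 0.925% were called higher and 14.6% lower in VND3207 mice at an adjusted p under 0.05. Of 72 measured genes in the 6 pathway lists, 0 were called higher and 2 lower, 50 had a difference above 0, and their median difference was 0.14. The median was -0.06 over all kept probes and -0.02 over those well above background on all 6 arrays. These are unlike sets, since the lists take only the brightest probe of a gene, and the share of all probes above 0 was not computed. With the trend correction 4 of the 72 genes were called higher and 1 lower, where 2.88% of all probes were called higher and 7.59% lower. The 4 called higher are named here after their values were seen. Fyn (0.72) and Src (0.71) encode Src family kinases, Foxl1 (0.74) a mesenchymal transcription factor and Ptch1 (0.58) a Hedgehog receptor. Without the correction these 4 had 0.30, 0.15, 0.34 and 0.03. After quantile normalization their limma adjusted p was 0.0286, 0.15, 0.0642 and 0.126, in the same order. The gene called lower was Kdr on its brightest probe (-0.46, limma adjusted p = 0.0455).

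Of 9 measured genes that process or bind PDGF ligands, 0 were called in either direction, 6 were above 0 and the median difference was 0.05. Plat, the tissue plasminogen activator that cleaves PDGF-C, had a difference of 0.60 (SE 0.28, limma adjusted p = 0.233). Its level was -1.91, -1.89 and -2.60 in VND3207 mice 1 to 3, against -2.75, -3.11 and -2.34 in vehicle mice 1 to 3, and the groups overlapped. Plaur, the urokinase receptor, had 0.48 (limma adjusted p = 0.232), and the co-receptor gene Nrp1 0.37 (adjusted p = 0.334). Itgb3, an integrin subunit that cooperates with PDGFRβ, had 0.22 (limma adjusted p = 0.374), and its other probe had -0.65.

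Of 20 measured genes that carry the signal from the receptors into the cell, 0 were called and 14 were above 0, with a median of 0.14. Of the regulatory subunits of PI 3-kinase, Pik3r1 had 0.26 (SE 0.10, limma adjusted p = 0.15) and Pik3r2 -0.37 (SE 0.12, adjusted p = 0.0908). Pik3r1 was at 0.20 to 0.32 in VND3207 mice and -0.07 to 0.06 in vehicle mice, and Pik3r2 at 1.97 to 2.12 in VND3207 mice and 2.31 to 2.56 in vehicle mice. Pik3r2 had -0.035 with the trend correction (limma adjusted p = 0.876) and -0.07 with arrays scaled by their median. The Src family kinase gene Fyn had 0.30 (limma adjusted p = 0.18). Fyn passed with the trend correction (0.72, limma adjusted p = 0.0192).

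Of 11 measured genes that restrain receptor signalling, 1 was called lower, 0 higher, and 7 were above 0, with a median of 0.12. Spry2, an inhibitor of receptor tyrosine kinase signalling, fell by 1.13 on the log2 scale (SE 0.25, limma adjusted p = 0.0304). Its level was -4.99, -4.95 and -4.17 in VND3207 mice 1 to 3, against -3.76, -3.59 and -3.38 in vehicle mice 1 to 3. It was well above background on 2 VND3207 arrays, and with the trend correction the difference was -0.63 (limma adjusted p = 0.11). When 1 array was left out at a time it passed without VND3207 replicate 3 (adjusted p = 0.00531) and missed the threshold without any 1 of the other 5, and over all alternatives its limma adjusted p ran from 0.00531 to 0.189. The related Spry1 had 0.38 (limma adjusted p = 0.237), and the ubiquitin ligase genes Cbl and Cblb, which mark activated receptors for degradation, 0.32 (adjusted p = 0.143) and 0.24 (adjusted p = 0.221), while the other probe of Cblb had -1.21.

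The receptors most like the PDGF receptors are those of stem cell factor, CSF-1 and the FLT3 ligand. Of 7 genes of these receptors and ligands, 0 were called and 5 were above 0, with a median of 0.15. Kit, the receptor of the interstitial cells of Cajal in gut muscle, had 0.17 (limma adjusted p = 0.616), Csf1 0.22 (adjusted p = 0.385), Flt3l 0.22 (adjusted p = 0.298) and Flt3 -0.15 (adjusted p = 0.6). Other probes gave 0.45 for Flt3l and down to -0.99 for Flt3. Of 7 measured genes of the VEGF family, whose ligands share the fold of the PDGFs, 1 was called lower and 4 were above 0, with a median of 0.09. That gene was Kdr, the main VEGF receptor of endothelium, which fell by 0.60 on its brightest probe (SE 0.12, limma adjusted p = 0.0224), while its other probe had 0.61, so that no direction is given for Kdr as a gene. Vegfa had 0.25 (limma adjusted p = 0.251), Flt1 0.35 (adjusted p = 0.217) and Vegfb -0.33 (adjusted p = 0.213).

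Hedgehog signals from the epithelium act on the mesenchymal cells that carry PDGFRα. Of 18 measured genes of this signal and of the villus mesenchyme, 0 were called and 14 were above 0, with a median of 0.24. Sox6, a transcription factor gene, had 0.42 (SE 0.12, limma adjusted p = 0.0762), with -1.80 to -1.50 in VND3207 mice and -2.16 to -1.94 in vehicle mice. It had 0.14 with the trend correction (limma adjusted p = 0.548) and 0.58 after quantile normalization (adjusted p = 0.0329). Bmp5, a bone morphogenetic protein gene, had 0.51 (limma adjusted p = 0.187), and Gli1, a target of Hedgehog signalling, 0.48 (adjusted p = 0.417).

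Marker lists of the cell types in the tissue were measured beside the receptors, and their part in the receptor differences was not tested. The 14 fibroblast markers had a median difference of 0.11 with 0 called and 11 above 0, and their mean level was 2.48, 2.10 and 1.83 in VND3207 mice 1 to 3 and 1.89, 1.78 and 2.32 in vehicle mice 1 to 3. Those groups overlapped, and Pdgfra relative to the fibroblast mean of the same array was -1.14, -0.81 and -0.78 in VND3207 mice and -1.34, -1.29 and -1.43 in vehicle mice, a difference of 0.44 with no overlap. With the trend correction this difference was 0.35. Pdgfrb relative to the same mean was higher by 0.27, with overlapping groups, by 0.09 without VND3207 mouse 3, by 0.13 without vehicle mouse 3, by 0.43 without VND3207 mouse 1 and by 0.17 with the trend correction. Among fibroblast markers, Adamdec1, a protease gene of mucosal stroma, had 0.32 (limma adjusted p = 0.266), Vim, an intermediate filament gene of mesenchymal cells, 0.23 (adjusted p = 0.63), Mfap5 0.57 (adjusted p = 0.561) and Pi16 0.30 (adjusted p = 0.8).

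Relative to the mean of the Hedgehog and villus mesenchyme list, Pdgfra was 1.84, 1.83 and 1.82 in VND3207 mice 1 to 3 and 1.33, 1.43 and 1.54 in vehicle mice 1 to 3, a difference of 0.40. The groups did not overlap, and with the trend correction the difference was 0.19.

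Of 10 pericyte markers, 1 was called lower, 0 higher, and 2 were above 0, with a median of -0.13. Cox4i2, a cytochrome oxidase subunit gene of pericytes, fell by 0.56 (SE 0.09, limma adjusted p = 0.0117). Rgs5, a widely used pericyte marker, had 1.63, 1.87 and -0.46 in VND3207 mice 1 to 3 and 1.46, 1.41 and 1.76 in vehicle mice 1 to 3, so that VND3207 mouse 3 alone was low. Notch3, which controls mural cells, had 0.37 (limma adjusted p = 0.171) and Higd1b -0.33 (adjusted p = 0.378). Pdgfrb relative to the pericyte mean of the same array was 0.75, 0.72 and 1.40 in VND3207 mice 1 to 3 and 0.40, 0.48 and 0.31 in vehicle mice 1 to 3. The groups did not overlap, with a difference of 0.56. Without VND3207 mouse 3, in which the pericyte mean was low (-0.93, against -0.31 and -0.40 in VND3207 mice 1 and 2), the difference was 0.34, and with the trend correction it was 0.28.

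The 9 smooth muscle markers had 0 called and 0 above 0, with a median of -0.58. Their mean level was 3.66, 3.67 and 1.55 in VND3207 mice 1 to 3 and 3.48, 3.42 and 3.78 in vehicle mice 1 to 3, so that VND3207 mouse 3 was far below the other 5 mice. Actg2, Cnn1, Des and Synpo2, genes of contractile smooth muscle, had limma adjusted p from 0.413 to 0.565. Without VND3207 mouse 3 the Pdgfra difference was 0.67 and the Pdgfrb difference 0.38.

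Of 11 endothelial markers, which stand for a source of PDGF-B, 9 were above 0 and 1 was called lower, with a median of 0.14. Pecam1, an adhesion molecule gene of endothelium, fell by 0.56 (SE 0.10, limma adjusted p = 0.0135). Plvap had 0.39 (limma adjusted p = 0.133), Vwf 0.45 (adjusted p = 0.218) and Erg 0.39 (adjusted p = 0.493). The bright Pdgfb probe relative to the endothelial mean differed by 0.05 between the groups, which overlapped, and by -0.06 with the trend correction. Of 5 measured platelet markers, which stand for another source of PDGF-B, 0 were called and 2 were above 0. Their median was -0.25, and 0.38 with the trend correction. Pf4 had 0.42 (limma adjusted p = 0.489) and Gp1bb 0.45 (adjusted p = 0.478), while Gp9 had -0.25, Gp6 -0.88 and Treml1 -1.09. Gp6 and Treml1 were well above background on 3 vehicle arrays and on 0 VND3207 arrays. Both passed the background filter only through the vehicle arrays, so nothing is read from their differences or from the platelet median.

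Of 11 epithelial markers, which stand for the source of PDGF-A, 4 were called lower and 2 were above 0, with a median of -0.23. Fabp2, a fatty acid binding protein gene of enterocytes, had a difference of -0.58 (limma adjusted p = 0.0233), Krt8 -0.47 (adjusted p = 0.0406), Krt20 -0.44 (adjusted p = 0.0424) and the brush border gene Vil1 -0.36 (adjusted p = 0.0488). After quantile normalization they had -0.13, -0.09, 0.0015 and -0.02, with limma adjusted p from 0.399 to 0.994. Pdgfa relative to the epithelial mean was higher by 0.09 in VND3207 mice, with overlapping groups.

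**Figure D3:**
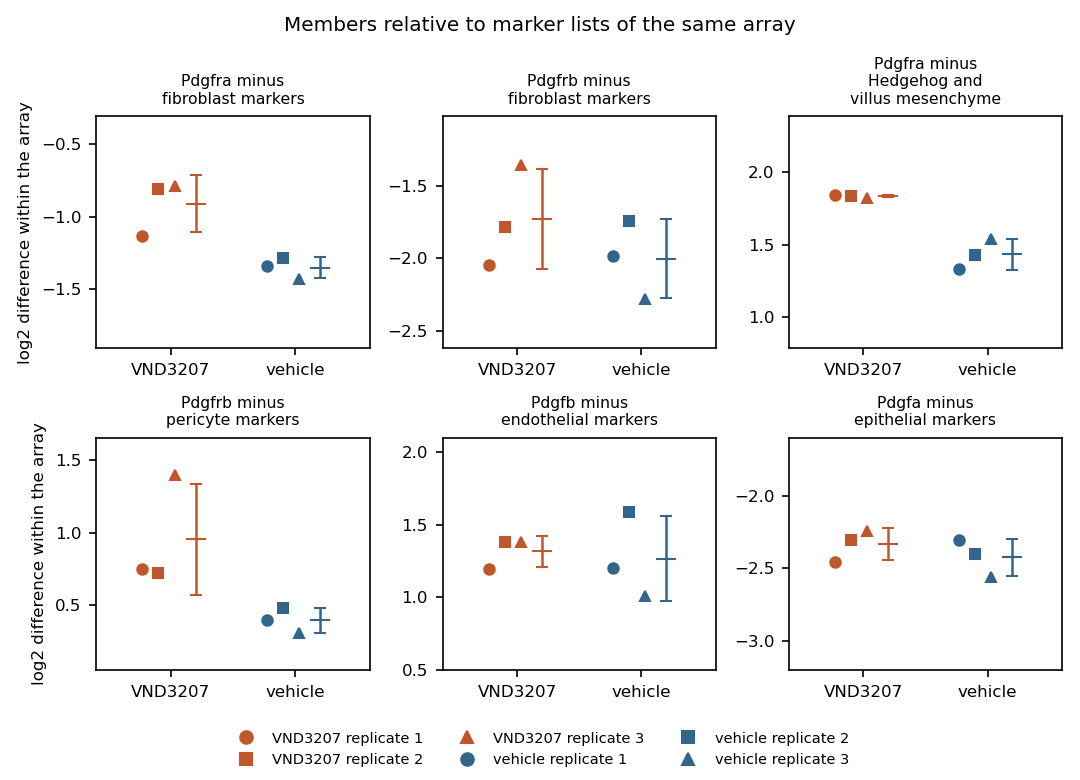
Each panel shows a PDGF gene minus the mean of a marker list on the same array (log2 scale), with the value of each mouse and the mean with its SD (n = 3 each). VND3207 mice lie wholly above vehicle mice for Pdgfra against fibroblast markers (difference 0.44) and against the Hedgehog and villus mesenchyme list (0.40) and for Pdgfrb against pericyte markers (0.56, or 0.34 without VND3207 mouse 3), and the groups overlap in the other 3 panels.

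Markers of other tissues and cells that a jejunum sample can carry also varied between mice. The mean of 7 adipocyte markers was 2.59, 0.45 and -1.53 in VND3207 mice 1 to 3 and 0.89, -1.82 and -0.66 in vehicle mice 1 to 3. These values overlapped and spread widely in both groups, 0 of the 7 were called, and Pdgfra relative to the adipocyte mean had a difference of -0.45 with overlapping groups, which was 0.53 without VND3207 mouse 1, 0.12 without vehicle mouse 2, -1.38 without VND3207 mouse 3 and -1.21 without vehicle mouse 1. Of 4 measured pancreas markers 3 were called lower, and their mean was -3.78 to -3.60 in VND3207 mice and -2.67 to -1.39 in vehicle mice. Cel, a lipase gene of the pancreas, fell by 1.00 (limma adjusted p = 0.0379). On no VND3207 array did Cela3b or Cpa1 stand well above background, and they were at least 3.21-fold and at least 2.57-fold lower. Each bound sets the vehicle mean against the mean of the higher of the probe's own signal and the lowest signal well above background on each VND3207 array. Both genes passed the background filter only through the vehicle arrays, so their calls are not read as a test. Over the alternatives Cela3b lost its call in 7 of 14, Cpa1 in 12 of 14 and Cel in 11 of 15.

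Of 8 enteric neuron and glia markers 2 were called lower, with a median of -0.20. Their mean was -1.92, -1.91 and -2.85 in VND3207 mice 1 to 3 and -2.14, -1.97 and -1.63 in vehicle mice 1 to 3, so that VND3207 mouse 3 was below the other 5 mice. Sox10 fell by 0.51 (limma adjusted p = 0.0241) and lost its call in 11 of 15 alternatives. Gfap fell by 1.34 on its brightest probe (limma adjusted p = 0.014), while another of its probes had -0.47. Gfap was well above background on 2 VND3207 arrays and lost its call in 5 of 14 alternatives. Of 9 leukocyte markers 1 was called lower and 5 were above 0, with a median of 0.04. Itgam had -0.75 on its brightest probe (limma adjusted p = 0.0421) and up to 0.55 on another. Of 87 measured marker genes, with Csf1r counted in a pathway list instead, 12 were called lower. Of all tested probes 14.6% were called lower, so nothing about cell types is read from that count. Of these 12 genes, 1 passed with the trend correction, and this was Itgam (limma adjusted p = 0.0241). Itgam lost its call in 11 of 15 alternatives (adjusted p up to 0.124), among them each that left out 1 array. With that correction Cox4i2 had -0.28 (adjusted p = 0.134) and Pecam1 -0.23 (adjusted p = 0.206).

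**Figure D4:**
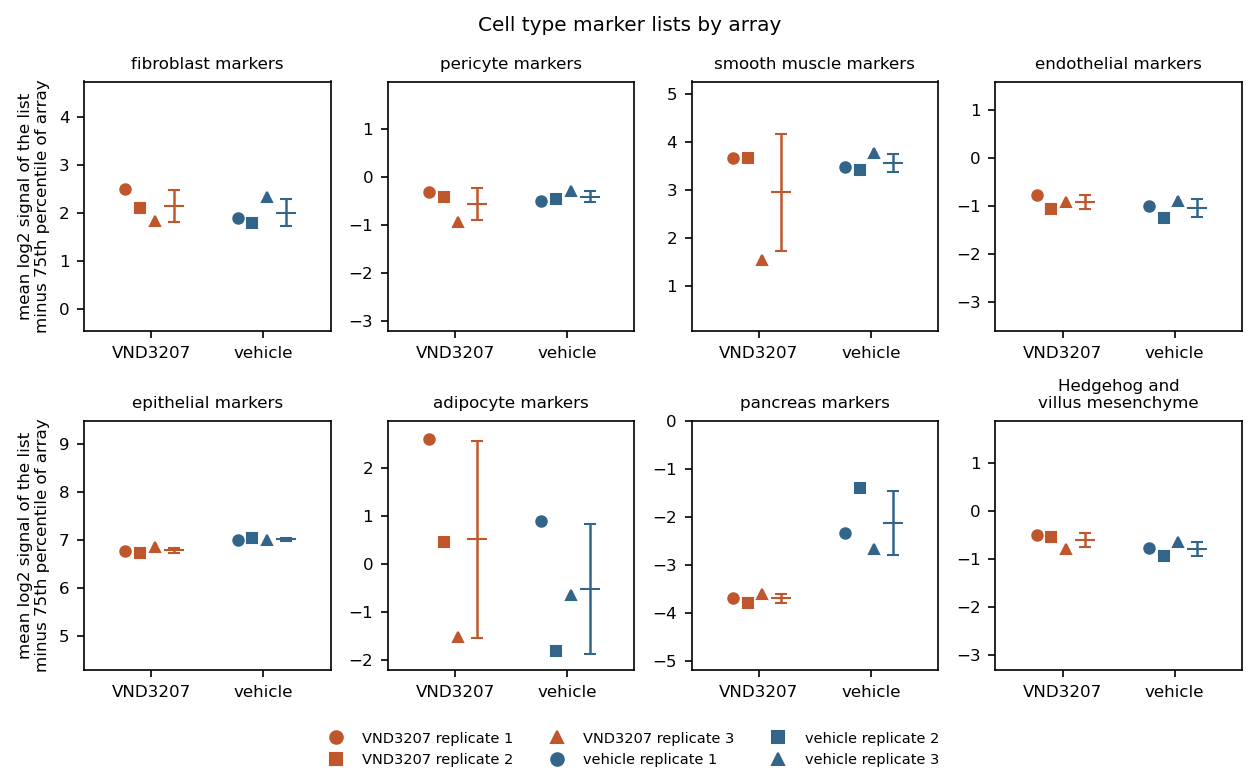
Each panel shows the mean of a gene list on each array (log2 signal minus the 75th percentile of the array), with the mean of each group and its SD (n = 3 each). VND3207 mouse 3 is low for smooth muscle markers (1.55), and the fibroblast means overlap. The pancreas markers are lower in VND3207 mice (-3.78 to -3.60 against -2.67 to -1.39). Of these, Cela3b and Cpa1 were well above background on 0 VND3207 arrays and on 3 vehicle arrays.

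The receptor differences were read under other ways of making the values. Pdgfra had 0.57 after quantile normalization, 0.54 after normexp background correction, 0.57 in the deposited value table, 0.88 with arrays scaled by their median and 0.44 with the trend correction. Pdgfrb had 0.40, 0.40, 0.42, 0.71 and 0.26 under the same settings in the same order. VND3207 mice lay above vehicle mice without overlap for both receptors under each of these 5 settings. The gap was narrow for Pdgfrb with the trend correction, with 0.26 in VND3207 mouse 2 against 0.23 in vehicle mouse 2. The share of all probes without overlap was not computed under these settings. As the members were chosen by their values, nothing is read from the lack of overlap. Scaling by the median also moved the median of all kept probes to 0.23, against -0.06 with the 75th percentile.

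**Figure D5:**
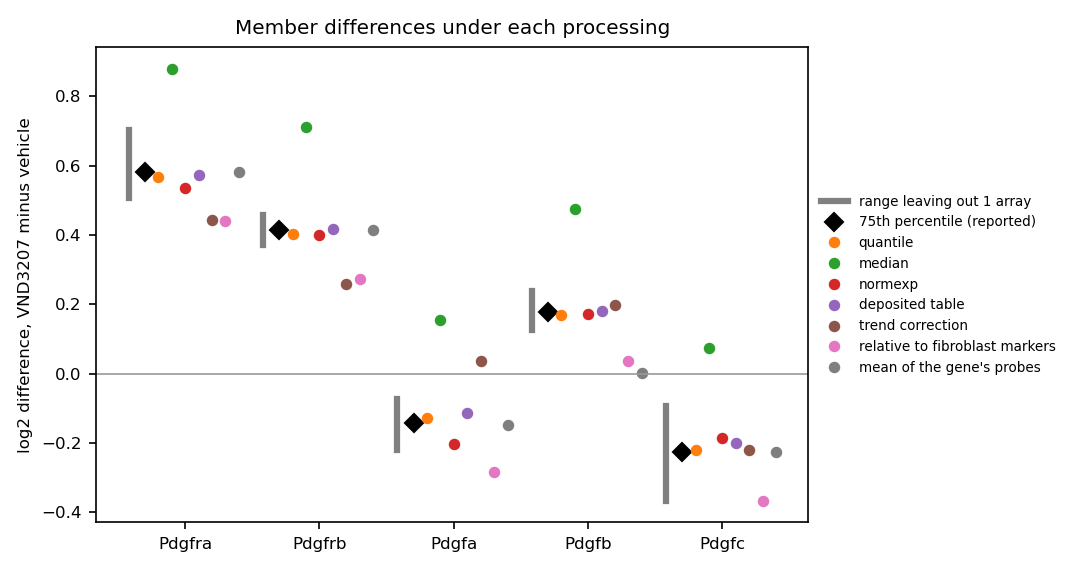
The y axis is the log2 difference (VND3207 minus vehicle) of each PDGF gene, the black diamond is the value as reported, the coloured points are other settings and the grey bar is the range when 1 array is left out. Pdgfra (0.44 to 0.88) and Pdgfrb (0.26 to 0.71) are above 0 under every setting shown, and Pdgfa and Pdgfc lie on both sides of 0.

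The genes whose deviations from the group mean followed those of a member most closely over the 6 arrays were looked up among 15120 genes well above background on every array. For Pdgfra these were Zfp566, Epn2 and Serpini1, with Pearson r of 0.9994, 0.9977 and 0.9969. For Pdgfrb they were Bclaf3, Vezf1 and 4921507G05Rik, with r of 0.9943, 0.9943 and 0.9941. For Pdgfa they were Sh3yl1, Snx22 and Gm4953 (r of 0.9971, 0.9969 and 0.9967), for Pdgfb Rab8a, Ptk7 and Isoc2b (0.9987, 0.9984 and 0.9978) and for Pdgfc Zfp36l2, Fam189a1 and Foxp1 (0.9986, 0.9979 and 0.9963). With 6 arrays and so many genes such values are a description only, and the points share the scaling of their array. Among the members themselves, the deviations of Pdgfra and Pdgfa had r of -0.94, those of Pdgfra and Pdgfrb -0.06 and those of Pdgfrb and Pdgfc -0.81.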

How the data were processed

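Per the file headers, the deposited intensity values are the processed Cy3 signal of each spot, after background subtraction and detrending within the array by Agilent Feature Extraction 10.7.1.1. In the deposited table of log2 values the columns share quantiles, and how the authors made it is not given in the sources used here. Each array was scaled on the log2 scale by subtracting its own 75th percentile, taken over 59305 spots that are not controls. Spots marked as outliers were left out and spots of a probe averaged. The 36098 probes well above background on at least 3 of 6 arrays were kept, of which 1 could not be fitted and 32 lacked a value on at least 1 array. Groups were compared with limma 3.58.1 (lmFit and eBayes, 2-sided) under R 4.3.3 with no covariate beside the group, and with Benjamini-Hochberg adjustment over 36097 probes, and the code was tested on simulated data. The trend correction, for brightness, probe GC content and place on the array, was fitted with mgcv 1.9.3. A gene was represented by its brightest probe. Probes were named by RefSeq accession (26582), current symbol (2602) or the file's own name, if any (26497).

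The members, the 16 gene lists and the alternatives were chosen with earlier results of these data known. Named were all probes of the members, up to 4 genes of each list (those past the threshold by adjusted p, then the largest differences) and the 3 genes most like each member. Some genes that this rule names are not reported here. Samples of equal replicate number did not deviate together, so replicate numbers were not taken as pairs. Value columns without a sample numbered 0.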

Additional observations from a re-analysis of the deposited data

How the results depend on the processing

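Scaling by the median gave 0.88 for Pdgfra, 0.71 for Pdgfrb, 0.15 for Pdgfa, 0.48 for Pdgfb (groups then not overlapping) and 0.072 for Pdgfc. The trend correction gave 0.26 for Pdgfrb and 0.035 for Pdgfa. Relative to fibroblast markers, chosen after seeing the data, Pdgfrb had 0.27, Pdgfa -0.28 and Pdgfb 0.036, and the mean of both probes gave 0.001 for Pdgfb. Without 1 array at a time the differences were 0.51 to 0.70 (Pdgfra), 0.37 to 0.46 (Pdgfrb), -0.22 to -0.07 (Pdgfa), 0.13 to 0.24 (Pdgfb) and -0.37 to -0.09 (Pdgfc). Of all probes, 334 were called higher and 5258 lower (5.97% of calls higher), against 852 and 3257 after quantile normalization (20.7%), 6625 and 3825 with the median (63.4%), 337 and 2832 with normexp (10.6%), 919 and 3175 in the deposited table (22.4%), 1041 and 2740 with the trend correction (27.5%), 662 and 5511 without a filter on dim probes, 283 and 2921 with probes well above background on all 6 arrays, and 126 to 287 and 2966 to 5070 without 1 array (fewest higher without VND3207 replicate 1, fewest lower without vehicle replicate 2). Of all 36097 tested probes, 9807 had an unadjusted limma p under 0.05 in the main setting. Of the list genes, 0 were called higher and 14 lower. The counts were 2 and 4 with quantile normalization, 38 and 4 with the median, 1 and 11 with normexp and 2 and 3 in the deposited table. They were 4 and 2 with the trend correction, 1 and 8 without the filter and 0 and 9 with all 6 arrays required. Without 1 array they were 0 to 1 and 2 to 9 (2 without VND3207 replicate 2 and 2 without vehicle replicate 2). Without an array Spry2 had -1.39 to -0.98 and Kdr, which passed without VND3207 or vehicle replicate 3, -0.67 to -0.53. The replicate block left the member differences as they were and gave 143 probes higher and 3410 lower, with 0 and 3 list genes. It is no pairing, since samples of equal number had correlations of 0.13, -0.11 and -0.05. Krt20 had 0.0015 with quantile normalization and 0.092 with the trend correction, and Vil1 0.036 in the deposited table. The cause of these changes was not tested. No block for slide or scan could be fitted, as each holds arrays of 1 group.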
